A study of Mus musculus with 4 samples.

Results

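Regions of open chromatin around 10 genes of the AP-1 and immediate early factor families were examined in mouse hair follicle stem cells. The genes are Fos, Fosb, Fosl1, Fosl2, Jun, Junb, Jund, Atf3, Egr1 and Egr2, and every accessible region that shared at least 1 base with a gene's RefSeq bounds extended by 50 kb on either side was taken. This gave 94 of the 74777 regions of the list, and no region fell in 2 windows. The regions come from ATAC-seq, an assay in which the transposase Tn5 cuts and tags DNA that is not packed away in chromatin. The study compared K14-H2BGFP, K14Cre, Foxc1 fl/fl mice (the Foxc1 knockout, 1 library read in 2 runs) with K14-H2BGFP, Foxc1 fl/fl mice (the control, 1 library read in 2 runs). Both genotypes thus carry floxed Foxc1 and a GFP-tagged histone reporter, and only the knockout carries Cre, which the keratin 14 promoter directs to basal epithelial cells and their progeny. All mice were female and at postnatal day 30. Back skin was digested with collagenase and trypsin, and cells with GFP, CD34 and CD49f but without Sca-1 were sorted.

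The deposited regions form 1 list for all 4 runs, with no score, read count or genotype attached. No value could be given to either genotype, so knockout and control were not compared, and there was no replicate. The width of a region is its only measured property, the sequencing depth is unknown, and a region open in a few cells cannot be told apart from one open in all of them. As a check of the label, 10 of 10 hair follicle stem cell marker genes had a region within 1 kb of an annotated end, against 57.6% of all protein-coding genes. Of 14 markers of immune, pigment, endothelial, dermal and muscle cells, 3 did (Mlana, Dct and Col1a2). Another 8 had no region within 1 kb of the gene at all, as did 6861 of the 21887 protein-coding genes. Away from their ends Pdgfra, Pecam1 and Cdh5 had regions of up to 1555, 1077 and 310 bp, and the widest region at Dct measured 2072 bp. The percentiles below place each gene among all 21887 protein-coding genes, or each region among all regions. They describe this list and are not tests.

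AP-1 is a family of dimeric transcription factors whose subunits join through a basic leucine zipper (bZIP). FOS proteins need a JUN partner to bind DNA, whereas JUN proteins can also pair with each other. Many of these genes, together with the EGR zinc finger genes, are immediate early genes: growth factors, wounding or stress switch them on within minutes, without new protein synthesis, through factors already bound near their starts. In skin, AP-1 subunits are known for roles in keratinocyte proliferation, differentiation and the response to injury.

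Each of the 10 genes lay under or beside a wide accessible region. The widest region within 1 kb of the gene measured between 3013 bp at Jund and 11665 bp at Fosb, with a median of 4466.5 bp, against a median of 916 bp over all protein-coding genes (quartiles 0 and 1567 bp, where 0 means no region). Even the narrowest, at Jund, stood at percentile 96.8 of genes, and 3.19% of all protein-coding genes had a region that wide. Among the 9823 protein-coding genes within the length range of the 10 genes the share was 2.68%. At each of the 10 genes this region was also the widest of the whole window, which was the case for 33.0% of protein-coding genes. Over the list, the regions had a median width of 587 bp.

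**Figure D1:**
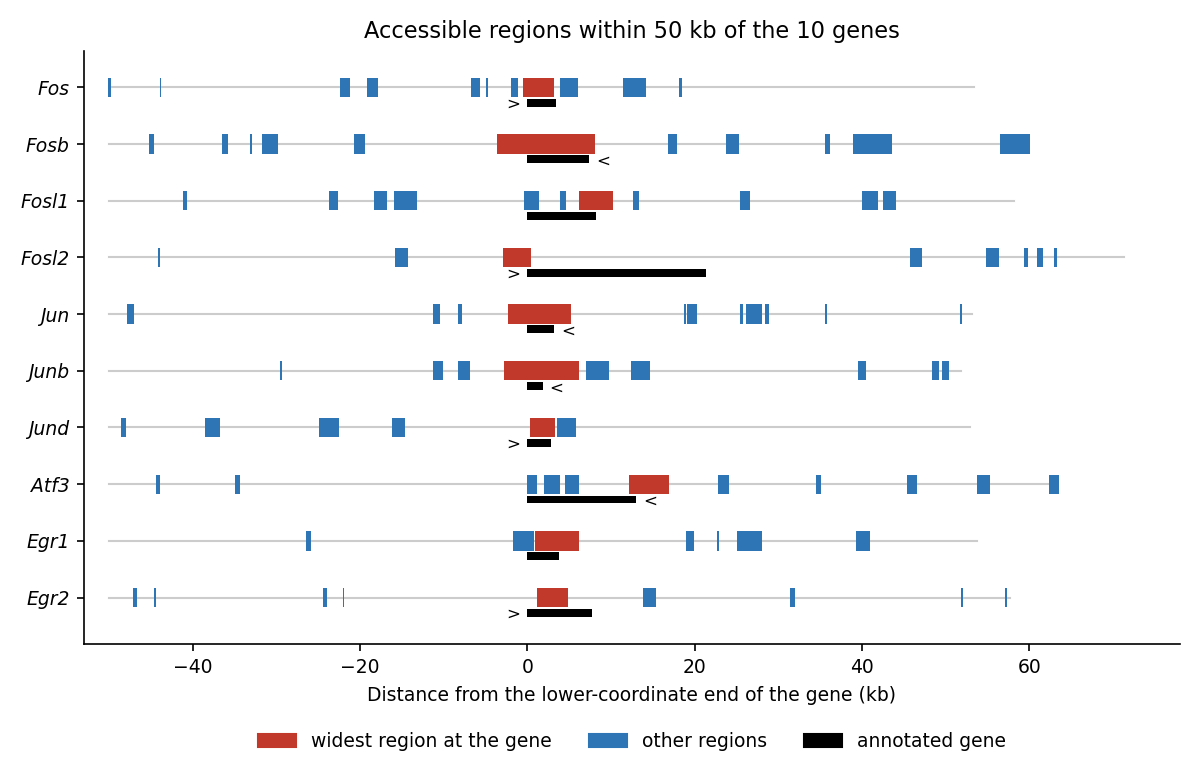
Accessible regions within 50 kb of each gene, drawn by distance from the gene's lower-coordinate end in kb; the red bar is the widest region at the gene, blue bars are the other regions, black bars are the annotated genes, and an arrowhead marks the end where transcription starts and its direction, where the strand was known. At Fosb, Jun and Junb the red bar extends past both ends of the gene, and at Fosl2 it covers only the start.

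Among the FOS genes, Fosb had by far the widest region. Fosb, whose shorter splice form accumulates in cells under repeated stimulation, lies on chromosome 7 from 19302696 to 19310118 (mm10) and is transcribed towards lower coordinates. Its region ran from 19299110 to 19310774, ranked 15 by width among 74777 regions and was 19.9 times as wide as the median region. It took in the whole gene, 656 bp beyond its upper end and 3586 bp beyond its lower end, where it also overlapped the non-coding gene Gm26802. Fos, the founding member of the family, lies on chromosome 12 from 85473890 to 85477274. Its widest region of 3633 bp (85473421 to 85477053) began 469 bp before the start and covered most of the gene, and a second of 2119 bp lay 520 bp past its other end. A further region of 857 bp lay 1158 bp upstream of the start.

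Fosl1 and Fosl2 encode the FOS-related antigens FRA-1 and FRA-2, which lack the strong activation domain of FOS. Fosl1, on chromosome 19 from 5447698 to 5455938, had 3 regions of 1822, 769 and 4075 bp along its length. The widest of these covered its upper-coordinate end and reached into the neighbouring gene Ccdc85b, so its width cannot be given to Fosl1 alone. Fosl2, on chromosome 5 from 32136472 to 32157840, had a single region of 3270 bp, from 32133587 to 32136856. That region lay almost wholly before the start, with 2885 bp upstream, and covered 1.80% of the gene. No region followed for 45.362 kb, up to 32182218, so that the rest of Fosl2 held none.

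All 3 JUN genes, which have no introns, were largely or wholly covered. Jun, the partner shared by most AP-1 dimers, lies on chromosome 4 from 95049036 to 95052222 under a region of 7586 bp (95046686 to 95054271). This region ranked 39 in the list, reached 2049 bp before the start and 2350 bp past the other end, and overlapped the antisense non-coding gene Junos. Junb, which can oppose Jun in growth control and restrains inflammation in mouse skin, lies on chromosome 8 from 84976909 to 84978748. It is only 1840 bp long, but its region measured 8942 bp (84974097 to 84983038), ranked 27 and extended 4290 bp before the start and 2812 bp past the other end, into Prdx2, a peroxiredoxin gene. Jund, on the same chromosome from 70697739 to 70700616, had the narrowest region of the 10 genes at 3013 bp (70698048 to 70701060). A further region of 2247 bp (70701289 to 70703535) began 673 bp past the gene's end and overlapped the neighbouring gene Iqcn. It was only narrowly separated from the first, so the width given for Jund depends on these regions being listed apart. The region at Jund was 5.13 times the median width, against 12.9 times at Jun and 15.2 times at Junb, whose region takes in part of Prdx2. Jund is generally the least inducible of the JUN genes, but induction was not measured here and a link with region width was not tested.

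Atf3, a stress-induced bZIP gene whose product often acts as a repressor, lies on chromosome 1 from 191170296 to 191183333 and is transcribed towards lower coordinates. Its region of 4858 bp (191182403 to 191187260) straddled the start, with 3927 bp upstream of it. Within or at the far end of the gene lay 3 more regions of 1203, 1899 and 1620 bp, so Atf3 had 4 regions of its own, the most of the 10 genes. Egr1, the most widely induced EGR gene, lies on chromosome 18 from 34861207 to 34864956. It was covered by 2 regions of 2452 and 5251 bp that were only narrowly separated, the first from 34859508 to 34861959 and the second from 34862157 to 34867407. Egr2, known for hindbrain patterning and for myelination by Schwann cells, lies on chromosome 10 from 67534469 to 67542188. Its region of 3799 bp (67535581 to 67539379) lay inside the gene, more than 1 kb from both annotated bounds, and covered 4 of the 5 RefSeq starts listed for it.

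Regions lay at the ends of most of these genes and, at 6 of them, over nearly the whole transcribed stretch. A region touched the 1 kb around either annotated end at 9 of the 10 genes, all but Egr2, against 57.6% of protein-coding genes. Regions touched both ends at 8 of them, all but Egr2 and Fosl2, against 8.14% of protein-coding genes. Regions covered 100% of Fosb, Jun and Junb, whereas 0.471% of all protein-coding genes, and 0.234% of those within the length range of the 10 genes, were covered over every base. Egr1 was covered over 94.7% of its bases, Fos over 93.5% and Jund over 89.3%. Fosl1 followed with 51.9%, Egr2 with 49.2% and Atf3 with 42.8%, at percentile 97.5 or higher, while Fosl2, with 1.80%, stood at percentile 46.0. The median was 91.4% over the 10 genes, against 2.27% over all protein-coding genes. The 10 genes are short, with a median length of 5586.5 bp against 17169 bp. A wide region covers more of a short gene and more easily touches both of its ends. For both ends, no share among genes of like length was computed.

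**Figure D2:**
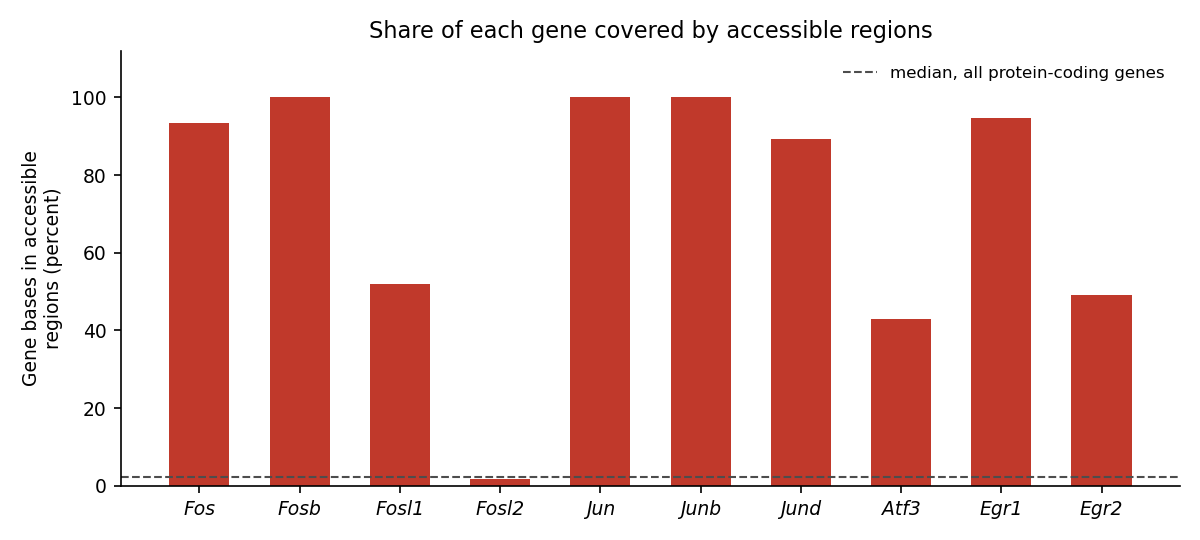
Percent of the bases of each gene that lie in accessible regions, 1 bar per gene, with the median of all protein-coding genes (2.27%) as a dashed line. The bars of Fosb, Jun and Junb reach 100%, and that of Fosl2 lies at 1.80%, below the line.

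The promoters of 8 of the 10 genes were in the RefSeq sequence table (GRCm38.p6), which holds the 250 bases before and 50 bases after each start; Fosl1 and Egr1 were not matched. Regions overlapped 10 of the 12 listed start windows of these genes, each over all 300 bases, against 41.2% of all 32851 windows in the table. At least 1 window was overlapped in 7 of the 8 genes, against 55.0% of the protein-coding genes in the table. The exceptions were the start of Jund, 309 bp before its region, and the first of the starts of Egr2, 82 bp before its region. The 250 bases before the start are printed below for the 8 matched genes, to show which of the searched motifs they hold; for Egr2 the third listed start is used. Capitals mark matches on either strand. They mark TGACG (the opening letters of the cAMP response element TGACGTCA) and TGACATCA, a variant of that element which does not hold TGACG. They also mark the EGR motif GCGNGGGCG, the forkhead motif TGTTTAC, the TATA box searched as TATAAA, and the CArG box bound by serum response factor.
Fos, chr12:85473640-85473889, plus strand: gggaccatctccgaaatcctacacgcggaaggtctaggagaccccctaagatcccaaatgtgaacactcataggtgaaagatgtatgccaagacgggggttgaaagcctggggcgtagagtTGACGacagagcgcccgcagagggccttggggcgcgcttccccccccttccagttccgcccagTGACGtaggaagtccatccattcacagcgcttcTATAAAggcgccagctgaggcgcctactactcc
Fosb, chr7:19310046-19310295, minus strand: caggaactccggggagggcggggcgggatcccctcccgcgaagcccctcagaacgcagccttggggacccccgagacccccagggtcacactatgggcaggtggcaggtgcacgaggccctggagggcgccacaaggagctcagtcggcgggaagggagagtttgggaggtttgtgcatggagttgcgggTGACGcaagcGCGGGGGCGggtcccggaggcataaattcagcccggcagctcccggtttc
Fosl2, chr5:32136222-32136471, plus strand: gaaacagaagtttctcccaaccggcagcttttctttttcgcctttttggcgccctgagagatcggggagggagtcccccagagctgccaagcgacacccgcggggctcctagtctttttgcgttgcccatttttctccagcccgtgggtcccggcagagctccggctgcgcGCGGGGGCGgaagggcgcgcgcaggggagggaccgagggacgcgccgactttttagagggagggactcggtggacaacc
Jun, chr4:95052223-95052472, minus strand: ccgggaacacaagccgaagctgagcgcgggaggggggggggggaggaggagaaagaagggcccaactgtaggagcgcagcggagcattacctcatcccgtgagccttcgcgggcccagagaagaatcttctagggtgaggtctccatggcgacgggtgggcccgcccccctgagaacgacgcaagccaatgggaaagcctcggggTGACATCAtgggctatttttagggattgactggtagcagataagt
Junb, chr8:84978749-84978998, minus strand: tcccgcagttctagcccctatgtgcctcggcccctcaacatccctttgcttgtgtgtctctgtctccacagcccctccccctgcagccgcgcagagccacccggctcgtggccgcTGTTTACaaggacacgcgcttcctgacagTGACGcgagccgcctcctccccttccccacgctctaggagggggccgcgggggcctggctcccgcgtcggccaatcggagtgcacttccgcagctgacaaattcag
Jund, chr8:70697489-70697738, plus strand: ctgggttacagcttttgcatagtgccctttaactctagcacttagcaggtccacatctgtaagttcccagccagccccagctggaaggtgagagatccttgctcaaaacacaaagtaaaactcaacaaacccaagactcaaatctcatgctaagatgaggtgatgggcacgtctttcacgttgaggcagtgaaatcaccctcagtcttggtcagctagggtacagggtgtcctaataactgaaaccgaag
Atf3, chr1:191183334-191183583, minus strand: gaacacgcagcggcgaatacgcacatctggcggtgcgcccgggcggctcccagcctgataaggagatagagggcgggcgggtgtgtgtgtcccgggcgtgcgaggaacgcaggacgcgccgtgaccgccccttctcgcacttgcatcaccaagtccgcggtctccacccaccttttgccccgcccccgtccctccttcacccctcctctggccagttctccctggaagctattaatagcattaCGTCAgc
Egr2, chr10:67537619-67537868, plus strand: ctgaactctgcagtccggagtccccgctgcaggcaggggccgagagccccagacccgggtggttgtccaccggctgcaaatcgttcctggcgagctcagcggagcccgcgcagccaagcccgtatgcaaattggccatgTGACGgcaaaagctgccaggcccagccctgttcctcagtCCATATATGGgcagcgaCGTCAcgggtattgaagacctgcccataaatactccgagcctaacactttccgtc

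The letters TGACG, on either strand, stood in the windows of 5 of the 8 genes (Fos, Fosb, Junb, Atf3 and Egr2), whereas 20.8% of all windows and 31.6% of windows overlapped by a region held them. These letters were chosen after the sequences had been seen. In Fos they began 66 and 129 bases before the start, in Fosb 60, in Junb 106, and in Atf3 their reverse complement began 7 bases before it. The full cAMP response element TGACGTCA was in none of the 8 genes' windows (0). It was in 1.79% of all windows and 3.22% of those overlapped by a region. Jun instead held the variant TGACATCA, 45 bases before its start. That variant was in 3.62% of all windows and 1.76% of those overlapped by a region. The AP-1 motif TGANTCA occurred in none of the 8 (0), against 7.81% of all windows and 5.89% of those overlapped by a region.

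A CArG box (CCATATATGG) stood 72 bases before the third start of Egr2. A different one (CCTTTTTTGG) stood 72 bases before the second, in a window not printed. Of all windows 1.63% held a CArG box, and of those overlapped by a region 1.32%. Because Egr2 has 5 listed windows that partly overlap, it had more chances of a match than the other genes. The EGR motif was found in Fosb and Fosl2, against 5.55% of all windows and 10.4% of those overlapped by a region. In both genes its match overlapped a match to the SP1 motif GGGCGG. That SP1 motif was in 6 of the 8, all but Junb and Jund, against 35.7% of all windows and 64.1% of those overlapped by a region, so the share of the 8 genes lay near that of other open promoters. TATAAA was found in Fos, 33 bases before its start, and in Junb at the start itself. Of all windows 13.6% held it, and of those overlapped by a region 6.79%. The forkhead motif TGTTTAC, of the family to which Foxc1 belongs, was found in Junb, 135 bases before its start. It was in 3.65% of all windows and 2.68% of those overlapped by a region. CCAAT was in Jun, Junb, Atf3 and Egr2, against 37.4% of all windows and 38.8% of those overlapped by a region. The NFAT motif TGGAAA was in Egr2, against 21.4% and 16.6%. The NFAT and SP1 matches of Egr2 lay in windows before its earlier starts, which are not printed. The sequence of Jund stood apart in holding no match (0) to any of these motifs, and its 250 bases were 47.6% G or C, against 54.0% to 71.2% in the other windows printed or listed for these genes.

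The surroundings of the genes were also rich in regions. Windows held 11 regions each at Fos, Fosb, Fosl1, Jun and Atf3, 9 each at Junb and Egr2, 8 at Fosl2, 7 at Egr1 and 6 at Jund, against a median of 5 (quartiles 2 and 8) over all protein-coding genes. All 10 counts lay above that median, as did 46.5% of protein-coding genes. Per 100 kb of window, Jun had 10.7 regions, Fos 10.6, Fosb 10.2, Fosl1 10.2, Atf3 9.73, Junb 8.84, Egr2 8.35, Egr1 6.75, Fosl2 6.59 and Jund 5.83. The median over all protein-coding genes was 3.79 per 100 kb (quartiles 1.85 and 6.12). Jund, at percentile 72.6, was the only one of the 10 inside the quartiles, and Jun reached percentile 95.6. Within 20 kb the order changed: Fos led with 18.4 regions per 100 kb, and Fosl2, with 3.26, lay below the gene median of 3.87.

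**Figure D3:**
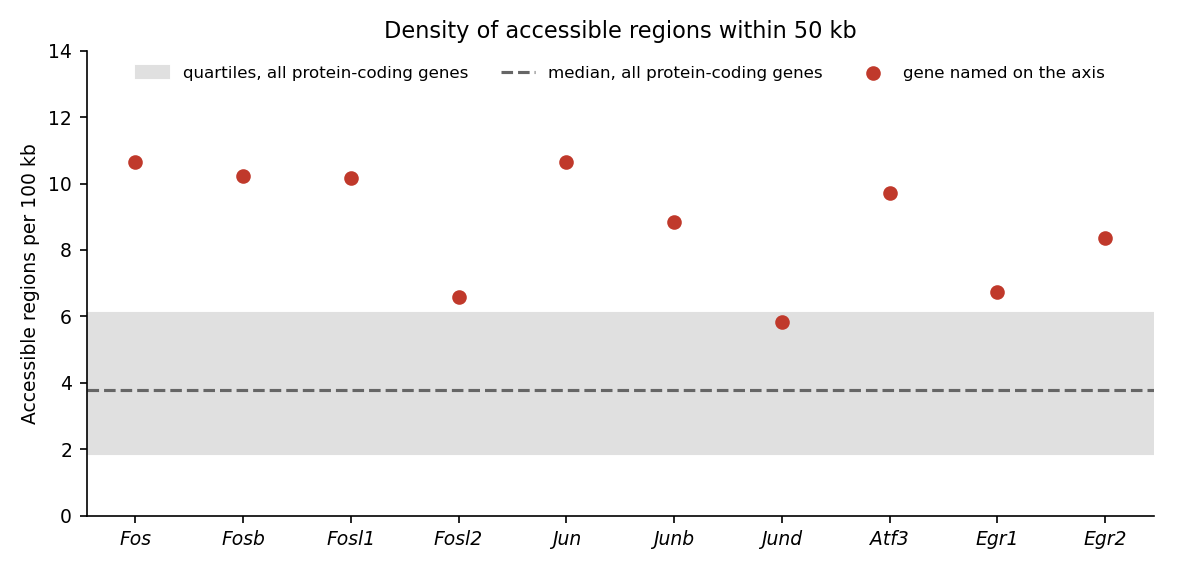
Accessible regions per 100 kb within 50 kb of each gene (points), with the median (dashed line, 3.79) and quartiles (grey band, 1.85 to 6.12) of all protein-coding genes. Jund, at 5.83, is the only point inside the band.

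Open ground made up 23.6% of the window at Fosb, 19.1% at Junb and 16.3% at Fosl1, against a median of 3.16% over all protein-coding genes. It was smallest at Egr2, with 7.40%, and at Fosl2, with 7.90%, which still stood at percentiles 84.9 and 86.9. A single region supplied 54.1% of the open bases around Jun, 47.7% around Egr2, 46.0% around Fosb and 45.9% around Junb. The windows of Fosb, Fosl1 and Junb also held 7, 11 and 8 other protein-coding genes, whereas those of Fos, Fosl2 and Jun held none (0). Around Fos, Fosl2 and Jun the regions were therefore not at the ends of other protein-coding genes.

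The 94 regions had a median width of 1133 bp, and 68 of them (72.3%) were wider than the list's median of 587 bp. Leaving out the widest region of each gene, the other 84 still had a median of 1037 bp, and 58 of them (69.0%) were wider than the list's median. Those that touched a gene of the 10 numbered 16, with a median of 3451.5 bp, and the 78 off the genes had a median of 961 bp. Of all 94, 14 (14.9%, exact 95% interval 8.39 to 23.7, counting error only) touched an end of the gene itself, against 11.4% over the windows of all protein-coding genes. A further 20 (21.3%) touched an end of another protein-coding gene, against 21.95%, so these shares lay near the background. Another 56 (59.6%) lay elsewhere, against 44.3%, and 4 (4.26%) lay inside the gene, against 22.4%. The 10 genes are short (median 5586.5 bp against 17169 bp over all protein-coding genes), and a short gene has less room for regions inside it. Shares matched for gene length were not computed, so these differences cannot be separated from gene length.

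Several of the regions away from the genes were wide as well. A region of 2776 bp lay 7.987 kb downstream of Fos, and 2 regions of 1162 and 1264 bp lay 21.268 and 17.895 kb upstream, at the non-coding gene Gm38543. At Fosb the widest of them, 4644 bp, lay 31.475 kb upstream, at an end of the DNA repair gene Ercc1. At Egr1 a region of 3009 bp lay 21.342 kb above the gene's upper end, overlapping no annotated gene. Junb had 2722 bp of open ground starting 5.223 kb upstream and 2209 bp starting 10.576 kb upstream. Upstream of Jun, 7 regions lay within Junos, of which the widest measured 1832 bp at 22.982 kb. At Egr2 the regions outside the gene were narrow, from 200 to 593 bp, apart from 1528 bp at the neighbouring gene Ado. The longest stretch without a region within a window was 47.081 kb, from the last region near Jund to the edge of its window, and at Fosb no such stretch exceeded 15.785 kb.

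Other immediate early genes had wide regions too. Of 24 other immediate early and EGR-related genes, 23 had a region at an annotated end, against 57.6% of protein-coding genes, all but Nr4a1, a nuclear receptor gene with a region of 1227 bp elsewhere in the gene. The widest region at each had a median of 2652 bp, against 916 bp over all protein-coding genes, and 9 of the 24 reached the width found at Jund, against 3.19%. Zfp36, whose product speeds the decay of cytokine mRNAs, had the widest at 11706 bp, followed by Klf6 with 10794 bp, the matrix gene Ccn1 with 6647 bp, the MAP kinase phosphatase gene Dusp1 with 5712 bp and Myc with 5345 bp. These 5 were named after their values were seen. Regions covered every base of 6 of the 24 genes (Ier2, Ier3, Dusp1, Zfp36, Klf6 and Ccn1), against 0.471% of protein-coding genes. Most regions in its window stood at Btg2, with 16, and 14 each at Ier5, Dusp6 and Klf6.

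Of 19 other bZIP genes, which can pair with or compete with AP-1, 15 had a region at an end, against 57.6% of protein-coding genes, all but Batf, Batf2, Nfe2 and Nfe2l3. Batf and Nfe2 serve mainly blood cells in mammals. Away from their ends Batf and Nfe2l3 held regions of up to 925 and 521 bp, whereas Batf2 and Nfe2 had none within 1 kb of the gene. The median of the widest regions over the 19 bZIP genes was 1295 bp, and 0 of the 19 reached the width found at Jund. With 3.19% of all protein-coding genes reaching it, that count lies near the background. Windows were nevertheless rich at Bach2 with 28 regions, Bach1 with 19 and Nfe2l2, the master gene of the antioxidant response, with 13. Bach2 is 347697 bp long, which widens its window. Of 19 kinases and factors upstream of the immediate early genes, 17 had a region at an end, against 57.6% of protein-coding genes, all but Srf, the gene of serum response factor, and Mapk10, a JNK gene used mainly in neurons. Away from its ends Srf held regions of up to 1188 bp, whereas Mapk10 had none within 1 kb of the gene. The widest regions of these 19 upstream genes had a median of 1459 bp. Of the 19, 0 reached the width at Jund (3.19% of protein-coding genes) and 0 were covered over all their bases (0.471%), both near the background. Windows held 15 regions at Mrtfb and 14 at Mrtfa, which encode cofactors of SRF, and 12 at Elk3. Hair follicle stem cell markers had a median widest region of 2472 bp, and Nfatc1, with 4152 bp, and Krt14, with 3702 bp, were the 2 of 10 that reached the width at Jund, against 3.19% of protein-coding genes; both were named after their values were seen. Among these markers, windows held most regions at Tcf7l1 with 17, Lhx2 with 15 and Lgr5 with 11. The labels do not give the species of the keratin 14 promoter in the transgenes, so whether its copies added to the region at Krt14 is unknown.

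**Figure D4:**
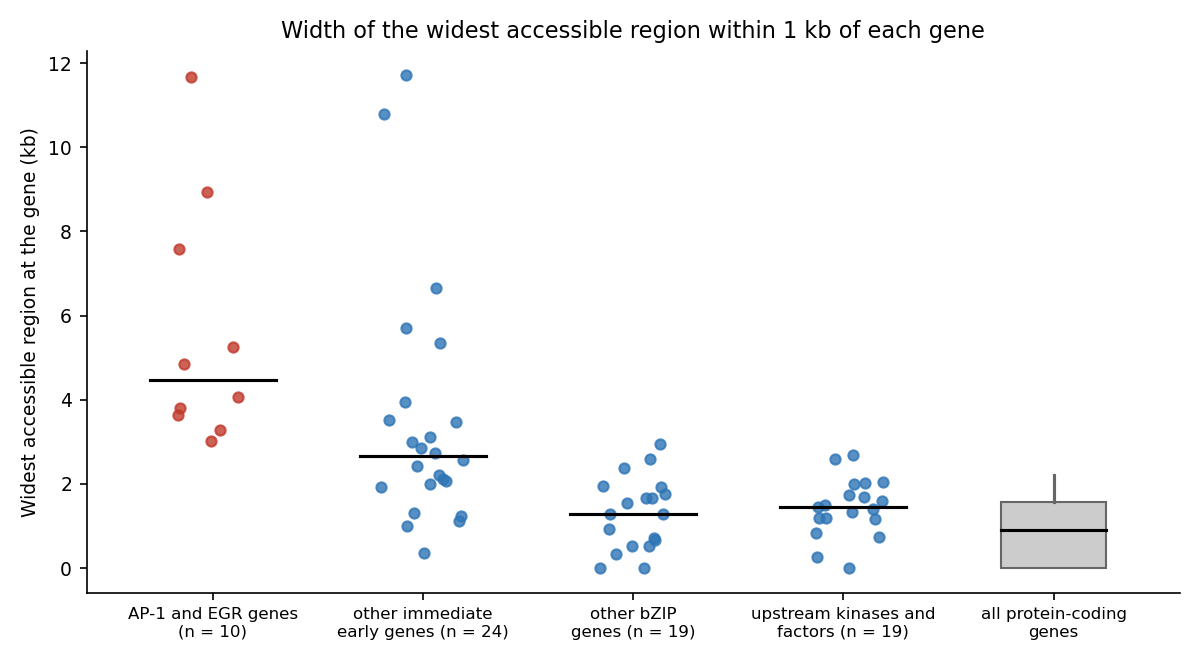
Width in kb of the widest accessible region within 1 kb of each gene, 1 point per gene, with black lines at the medians; the box gives the quartiles and median of all protein-coding genes and its line reaches the 90th percentile. The 10 AP-1 and EGR genes, between 3.013 and 11.665 kb, lie above all 19 other bZIP genes and all 19 upstream genes, and overlap with the other immediate early genes.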

How the data were processed

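The authors deposited a single list of accessible regions (chromosome, start and end) for all runs. Bowtie2, MACS2 and bedtools are named with build mm10, per the submitters' processing notes; not given in the sources used here were versions, settings, read filters, any Tn5 offset and pooling of reads. How neighbouring signal was joined sets the region widths. Starts were converted to 1-based positions, no region was filtered, and unused columns of samples numbered 0. Gene bounds came from RefSeq GRCm38.p6, which shares its primary coordinates with mm10, and strand and starts from the RefSeq promoter table. Overlap meant at least 1 shared base, and a gene end its bound ± 1000 bp. Tied values were counted at their midpoint in percentiles. Motifs were searched on both strands. All listed genes were matched by symbol or older symbol. The genes and lists were chosen with earlier results of these data known, so no test was made. All 10 genes are named. Other genes are those without an end region (all if up to 5) and the 3 with most regions, with ties, per list. Beside this rule, genes were named by region width or coverage after their values were seen. The heat shock genes were named outside the rule, after their values were seen. Python 3.11.15, pandas 2.3.3 and matplotlib 3.10.9 were used, and overlap counting was checked on simulated regions.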

Additional observations from a re-analysis of the deposited data

How the results depend on the processing

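Of 29 alternative values, 27 stayed within 1.5 times the count reported or within 1 SD over the genes. The share of regions at gene ends was held to its exact 95% interval instead. For widths the SD was that of the genes' median widths, which differ widely, so this limit is a loose one. Counting only regions at least as wide as the median lowered the median density around the 10 genes to 6.30 per 100 kb, against 2.10 over all protein-coding genes, since it removes regions by construction; 10 of 10 genes stayed above that median. With TGACG in place of the cAMP response element and its variant, 5 of 8 promoters had a match instead of 1, as a shorter word matches more often. With 2500 bp around gene ends, 10 of 10 genes had an end region, against 63.5% of protein-coding genes. Without regions at protein-coding gene ends, the median width of the remaining 59 regions was 711 bp, against 513 bp over the list's regions away from such ends. The main values were 1133 bp against 587 bp, so the width lay nearer the background, although this value was counted among the 27. No paired analysis was possible because the list holds no value for any library. Depth is unknown, so weak or absent regions cannot be separated from low coverage.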

Other observations

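Genes of the heat shock response, a list drawn up after their values were seen, also lay under wide regions. Of 16 such genes, 16 had a region at an annotated end (57.6% of protein-coding genes). The widest regions had a median of 2349.5 bp, and 6 reached the 3013 bp found at Jund, against 3.19% of protein-coding genes. The co-chaperone gene Dnajb1 had 8224 bp, the inducible chaperone gene Hspa1b 8141 bp, its near-identical copy Hspa1a 5331 bp, Hspa8 6264 bp, Hsp90aa1 4821 bp and Hspb1 4362 bp. Reads of the Hspa1a and Hspa1b copies may have been placed at either. Other genes of the list had narrower ones, with 1454 bp at Hspa5, the chaperone of the endoplasmic reticulum, 1368 bp at Hsf1, the gene of the heat shock factor itself, and 1575 bp at Hsph1 and 1847 bp at Bag3, which heat also induces. Regions covered every base of 5 of these 16 genes, against 0.471% of protein-coding genes. Of the 103 protein-coding genes covered over every base, 47 carry histone symbols and are very short. Within the length range of the 10 AP-1 and EGR genes 23 were covered over every base, Fosb, Jun and Junb among them.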
